A study of Homo sapiens with 6 samples.

Results

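Chromatin accessibility at the genes of the cytosolic ribosomal proteins (RPs) was examined in naive human embryonic stem (nES) cells grown with or without dimethyl α-ketoglutarate (dm-αKG). Members were the protein-coding genes of GENCODE 44 with an RPL, RPS or RPLP symbol of a number and at most 1 closing letter, or an L-type ending. RPS6K and RPS4Y genes and hyphenated names were left out. The rule took 83 of 20046 protein-coding genes, namely 43 of the large subunit, 30 of the small subunit, 3 of the stalk and 7 L-type paralogs. A peak was assigned to a gene when its centre lay within 1 kb of any of the gene's transcript starts. This gave 234 of the 171517 peaks in the counts table, at 82 of the 83 genes, with 1 to 7 peaks per gene and a median of 3. RPL3L, a paralog of RPL3 known from striated muscle, had no peak. No peak was shared by 2 members, but 77 of the 234 also lay within 1 kb of a start of another protein-coding gene.

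The assay was ATAC-seq, in which the Tn5 transposase cuts open chromatin and the cuts are read by sequencing. All 6 libraries came from H9, an established embryonic stem cell line, kept in the naive state in tt2iLGö medium (N2B27 with PD0325901, CHIR99021, Gö 6983 and LIF) at low oxygen. Both groups were freed of mouse feeder cells and plated on laminin. The 3 control libraries are labelled DMSO, with 0 mM dm-αKG in the protocol, and the 3 treated libraries received 4 mM dm-αKG for 24 h. dm-αKG is a cell-permeable ester of α-ketoglutarate, the cosubstrate of the JmjC histone demethylases and TET enzymes, and the comparison asks how its addition alters accessibility. The 3 replicates of each group belong to 1 experiment with 1 line, so p-values measure the spread within it.

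RPs are the proteins of the ribosome. They are made in equal amounts from genes scattered over the genome, whose compact promoters are among the active ones in every dividing cell. Their transcripts typically begin at a C followed by an unbroken stretch of pyrimidines, the 5′ terminal oligopyrimidine (TOP) motif, through which mTORC1 controls their translation. RPL5 and RPL11 bind the p53 regulator MDM2, RPS19 and several other RP genes are mutated in Diamond-Blackfan anaemia, and many RP introns carry small nucleolar RNAs. Accessibility at a start is not expression, and no RNA was measured in these libraries.

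Sequences around the annotated starts show what most members share. Of the 83 canonical transcripts, 58 (69.9%) began with a C and at least 4 further pyrimidines, against 861 of 19950 (4.32%) other protein-coding genes with a canonical start in the nuclear genome. The share was 31 of 43 for the large subunit, 23 of 30 for the small subunit, 3 of 3 for the stalk and 1 of 7 for the L-type paralogs. The 30 bases below, 15 before and 15 from the start on, were read from hg38 on the gene's strand, 5′ to 3′, and capitals mark the pyrimidine run that begins at the start. The first 5 genes carry the TOP motif, and the last 3 are shown because no run begins at their annotated start.
RPL11: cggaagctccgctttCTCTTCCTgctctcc
RPL13A: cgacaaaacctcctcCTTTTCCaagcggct
RPS19: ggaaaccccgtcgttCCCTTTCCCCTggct
RPLP2: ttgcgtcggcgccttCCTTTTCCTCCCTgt
RPL22L1: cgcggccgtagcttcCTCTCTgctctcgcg
RPL10L: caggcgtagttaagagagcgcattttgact
RPL19: tgggctctccccttcgcagataatgggagg
RPL39L: gcatccggggaaatcgcggtcttagcatcc
Among these 8, RPL22L1 was the only L-type paralog with a run, and RPL10L and RPL19 held the peaks that changed most among the leading peaks described next. In RPL19 a pyrimidine stretch stands just before the annotated start rather than at it.

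The peak with the highest mean normalized count of each gene is called its leading peak. The 82 leading peaks mostly sat just upstream of transcription. Of these, 75 had their centre upstream of the canonical start, 60 of them within 200 bp, with a median position of -107 bp. The leading peaks of RPL10, RPL27A and RPL36 lay beyond 1 kb from the canonical start, at alternative starts. GC content of leading peaks had a median of 61.5%, against 68.1% for the 14467 leading peaks of other protein-coding genes.

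Accessibility in control cells was given as the normalized count per 200 bp of peak width, so that peaks of unequal width can be compared. RP leading peaks had a median of 328, from 26.5 to 902, against a median of 261 at other genes. In all, 53 of 82 (64.6%) exceeded that median, and 8 (9.76%) reached the top decile of other genes. Among the 5 highest members in control cells, the levels were 902 ± 61.0 (SD, n = 3) for RPL27A, 749 ± 17.1 for RPL36 and 678 ± 23.3 for RPS26. RPL27A was first in 5 of 6 libraries.

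The RPL27A value comes from a peak at chr11:8688846-8689052 (hg38), 6157 bp downstream of the canonical start in exon 5 UTR and next to the start of an alternative RPL27A transcript. At the canonical start itself, the RPL27A peak had 395 normalized counts per 200 bp and a log2 fold change of 0.08 ± 0.09 (SE). RPL36 likewise led with a peak 9670 bp upstream, shared with the starts of HSD11B1L and MICOS13. Its peak at the canonical start had a level of 271 per 200 bp and a log2 fold change of 0.21 ± 0.10 (SE), with an adjusted p of 0.111 in edgeR's quasi-likelihood test with Benjamini-Hochberg adjustment. For RPL10, the canonical peak had a level of 234 and a log2 fold change of 0.04 ± 0.11 (SE). None of these 3 canonical peaks passed an adjusted p of 0.01.

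At the other end were RPS23 with 90.8 ± 5.78, RPL32 with 89.4 ± 11.7, RPL35A with 89.3 ± 5.42, RPL17 with 79.6 ± 11.6 and RPL19 with 26.5 ± 3.74 per 200 bp. The first 4 of these did not differ beyond their SDs, and RPL19 was last in all 6 libraries. RPL19 encodes a large subunit protein often used as a reference gene in expression assays, and its leading peak was a 532 bp interval that covers the start and runs into intron 1. That width enters the level per 200 bp, while its control mean was 70.4 normalized counts. The other RPL19 peak, 200 bp wide and 285 bp upstream, had a control level of 63.4.

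**Figure D1:**
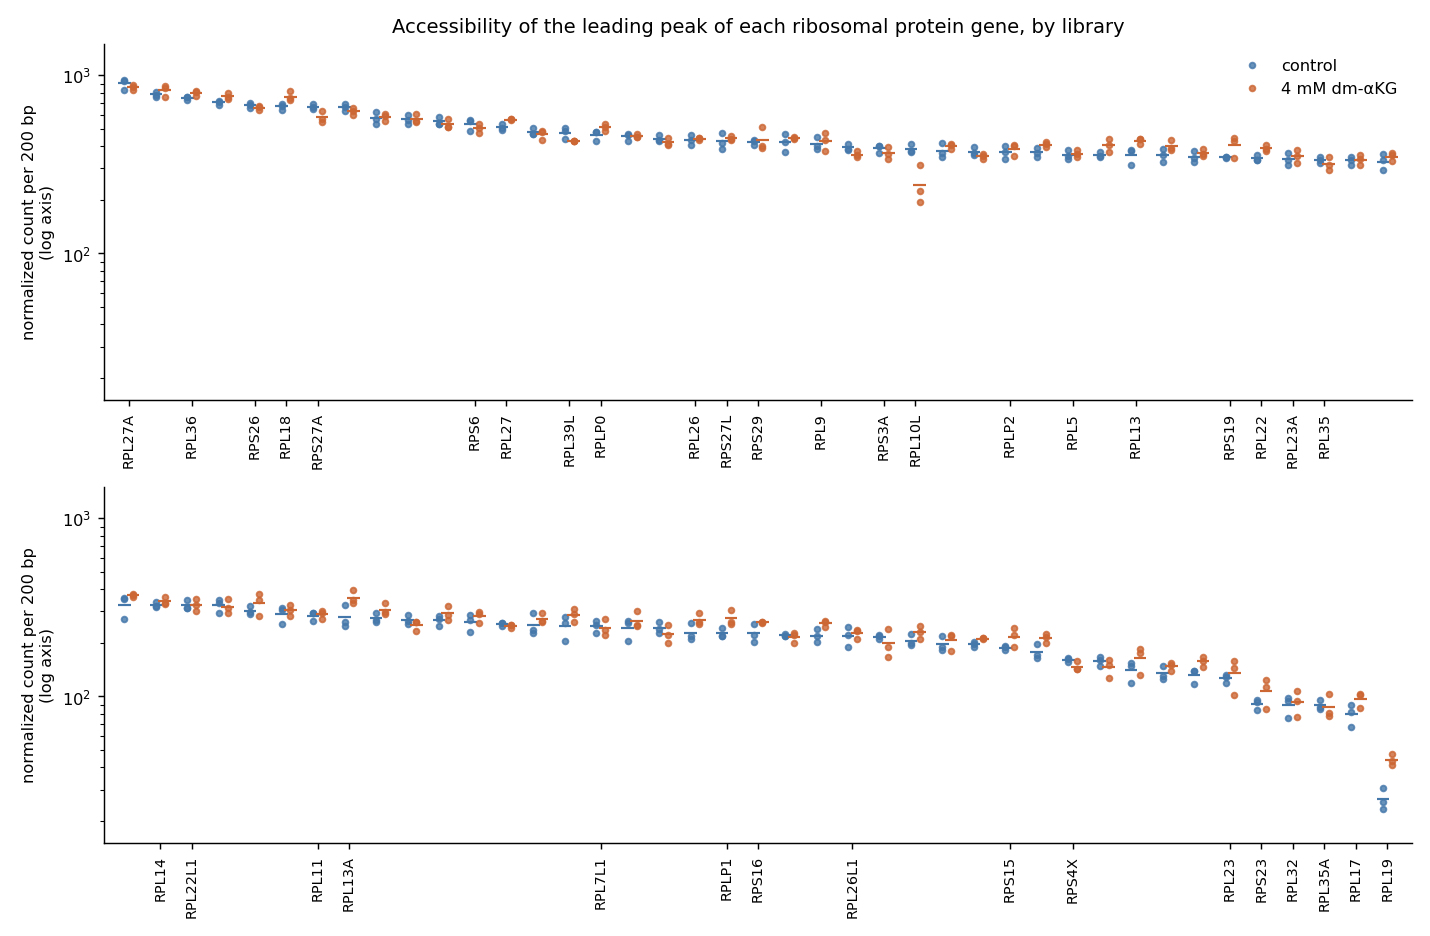
Normalized count per 200 bp (log axis) of the leading peak of each of the 82 RP genes with a peak, ordered by the control mean, with 1 point per library, a line at the mean of each group and symbols for the genes described in the text. Most genes show overlapping control and dm-αKG points, and RPL10L drops in all 3 dm-αKG libraries. RPL19 stands last, at 26.5 in control for a 532 bp wide peak, below a family median of 328.

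The counts in peaks totalled between 13025674 and 26828622 per library. RP peaks took between 0.226% and 0.231% of them in the 3 control libraries and between 0.240% and 0.252% with dm-αKG, so the groups did not overlap. The leading peaks took between 0.153% and 0.155% in control and between 0.159% and 0.164% with dm-αKG. The other 152 RP peaks took between 0.0730% and 0.0771% in control and between 0.0811% and 0.0914% with dm-αKG. All peaks at protein-coding starts, members included, moved the same way, from between 43.73% and 44.02% to between 45.5% and 47.0%, with dm-αKG replicate 3 nearest to control, and the part of this library-wide shift in the RP result was not tested. The naive factor NANOG had a level of 515 per 200 bp in control, POU5F1 472 and KLF17 400, but the fibroblast gene COL1A1 (175) also had a peak, so an open start alone does not identify the cells. Of 6 genes each, 3 fibroblast markers and 3 markers of other lineages had no peak, as did the naive marker DPPA3.

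**Figure D2:**
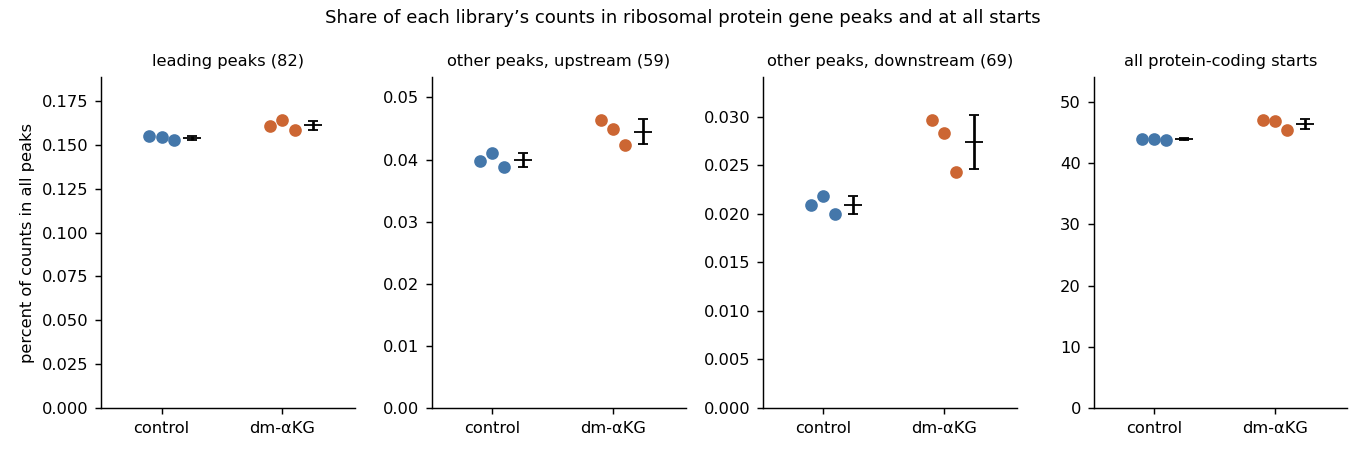
Percent of all counts in peaks (linear axis from 0) that fell in the 82 leading RP peaks, the 59 other RP peaks upstream and the 69 downstream of the canonical start, and all peaks at protein-coding starts, with 1 point per library and the mean ± SD (n = 3) beside each group. The dm-αKG points lie above the control points in each panel, with the wider gap in the downstream RP peaks, from between 0.02001% and 0.02187% to between 0.0243% and 0.0296%.

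Across the family, no RP peak was called lower and 5 of 234 were called higher at an adjusted p below 0.01 with a log2 fold change beyond 1, against 1.96% of all peaks called lower and 0.782% called higher. Without the fold threshold, 1 RP peak (0.427%) fell, against 6.54% of all peaks and 2.09% of peaks at other protein-coding starts. In the same test 17 RP peaks (7.26%) rose, against 3.34% of all peaks and 4.46% of peaks at other protein-coding starts. In this fit the higher share stood above its background and the lower share below it, and these differences were not tested. With TMM factors taken from promoter peaks alone the split was 3 lower and 11 higher in place of 1 and 17, and 1 peak in place of 5 was called higher. In that fit 9.14% of all peaks were lower and 1.80% higher. Of peaks at other protein-coding starts 3.60% were lower and 1.98% higher. In 81 of 234 peaks (34.6%) the 3 control and 3 dm-αKG values did not overlap, against 32.4% of all peaks, so their number over both directions was near the background. In 73 of the 234 dm-αKG was the higher group, against 26594 of all 171517 peaks and 10909 of 50673 peaks at other protein-coding starts. This difference in direction was not tested. At an unadjusted p below 0.05 there were 75 of 234 RP peaks and 52646 of all 171517 peaks. Thinning all libraries to the smallest left 4 of 234 RP peaks higher. This was no longer above the 1.76% of all peaks and 2.21% of peaks at other protein-coding starts in that fit. DESeq2 gave 8 of 234, against 1.81% of peaks at other protein-coding starts in its own fit. The number higher was 9 with control 1 left out, 9 with control 3 left out, 7 with dm-αKG 1 left out and 10 with dm-αKG 2 left out. In those fits between 1.96% and 2.73% of peaks at other protein-coding starts were higher. The RP counts in these fits and under DESeq2 were not tested against these shares. Peaks called higher fell to 3 under thinning, under DESeq2 and with control 3 or dm-αKG 2 left out, to 2 with dm-αKG 1 left out, and numbered 8 with dm-αKG 3 left out.

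The median log2 fold change of the 234 RP peaks was 0.15, against 0.01 for all peaks and 0.10 for the 50673 peaks at other protein-coding starts. With TMM factors from promoter peaks alone these medians were 0.0594, -0.0811 and 0.00834. Values above 0 were found for 178 RP peaks (76.1%), against 66.1% at other protein-coding starts. Peaks of the large subunit had a median of 0.13 with 10 of 131 higher, peaks of the small subunit 0.20 with 7 of 77 higher, and peaks of the stalk 0.32 with 0 of 8 higher. The L-type paralogs had a median of 0.07, with 0 of 18 higher and 1 lower.

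The leading peaks differed little between the groups. Their median log2 fold change was 0.07, and -0.02 with TMM factors from promoter peaks alone, against 0.05 for the leading peaks of other genes. In 66 of 82 the change was within 0.2 of 0 in either direction. Of all 82, 2 (2.44%) rose and 1 (1.22%) fell, against 3.67% and 2.80% of the leading peaks of other genes. By class, the median was 0.09 for the large subunit, 0.05 for the small subunit, 0.14 for the 3 stalk genes and -0.02 for the 6 L-type paralogs with a peak. The 27 genes that host small nucleolar RNAs had a median of 0.08 and the other 55 one of 0.07, and the 4 X-linked genes had -0.01.

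RPL10L was the only member with a peak that fell. It is an intronless retrocopy of the X-linked RPL10, known for replacing RPL10 in male germ cells during meiosis. Its only peak, at chr14:46651803-46652005 (hg38), centred 123 bp upstream of the start, had normalized counts of 377, 384 and 420 in the control libraries. The dm-αKG libraries had 227, 196 and 317. All 3 dm-αKG values were below the lowest control value, with replicate 3 closest to control. The log2 fold change was -0.69 ± 0.10 (SE), with an adjusted p of 1.43e-07 by edgeR's quasi-likelihood test with Benjamini-Hochberg adjustment. The peak stood in both peak lists, with a fold enrichment of 39.9 in the control list and 39.6 in the dm-αKG list, the highest among the 81 and 82 RP leading peaks that overlapped each list, whose medians were 13.99 and 13.54.

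RPL10L and its parent can be compared at the sequence level. The windows below hold 100 bases before and 20 from the canonical start on, at chr14:46651762-46651881 on the minus strand for RPL10L and chrX:154398277-154398396 on the plus strand for RPL10. Capitals mark the longest run of bases common to both windows, 16 bases, which occurs 2 times in RPL10L, from -89 and from -67, and 1 time in RPL10, from -68.
RPL10L: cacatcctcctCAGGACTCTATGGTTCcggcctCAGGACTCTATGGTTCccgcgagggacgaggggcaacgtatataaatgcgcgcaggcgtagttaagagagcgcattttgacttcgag
RPL10: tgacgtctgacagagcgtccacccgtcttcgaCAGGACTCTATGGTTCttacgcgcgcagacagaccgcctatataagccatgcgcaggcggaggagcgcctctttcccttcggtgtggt
RPL10L has the TATA letters TATAAA from -27 and no pyrimidine run at its start, whereas RPL10 starts with a run of 12 pyrimidines and lacks TATAAA in this window. At the RPL10 canonical peak the control libraries had 246, 252 and 248 normalized counts and the dm-αKG libraries 257, 284 and 223. These groups overlapped.

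The other L-type paralogs did not share the change of RPL10L at the adjusted p of 0.01. RPL39L, a paralog of RPL39 also known from the testis, had 529, 478 and 549 normalized counts in control and 468, 468 and 466 with dm-αKG. Its groups did not overlap, but its log2 fold change of -0.15 ± 0.08 (SE) had an adjusted p of 0.199 (edgeR, Benjamini-Hochberg). RPL22L1, a paralog of RPL22, had -0.01 ± 0.09, RPL26L1 0.05 ± 0.11, RPL7L1 -0.03 ± 0.11 and RPS27L, a p53 target, 0.07 ± 0.08 as log2 fold change and SE.

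The 2 leading peaks that rose belonged to RPL13A and RPL19. RPL13A, whose protein leaves the ribosome to silence inflammatory transcripts, had 284, 352 and 271 normalized counts in control and 376, 428 and 362 with dm-αKG. The groups did not overlap, the log2 fold change was 0.35 ± 0.09 (SE) and the adjusted p 0.00407 (edgeR, Benjamini-Hochberg). The low RPL19 peak had 68.0, 81.4 and 61.9 normalized counts in control and 116, 109 and 127 with dm-αKG. Again no library overlapped, with a log2 fold change of 0.72 ± 0.17 (SE) and an adjusted p of 0.00123 (edgeR, Benjamini-Hochberg). No interval of the control peak list overlapped this RPL19 peak, and 3 summits of the dm-αKG list lay in it. The choice of this row was thus not independent of its rise. The other RPL19 peak, upstream, held a summit of the control list alone. It had a log2 fold change of -0.29 ± 0.22 (SE) and an adjusted p of 0.367 (edgeR, Benjamini-Hochberg).

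Several leading peaks came near without passing. RPS27A, which encodes ubiquitin fused to a small subunit protein, had 650, 698 and 669 normalized counts in control and 556, 573 and 633 with dm-αKG. The groups were separate, at a log2 fold change of -0.20 ± 0.07 (SE) and an adjusted p of 0.0407 (edgeR, Benjamini-Hochberg). RPS19 had 638, 639 and 626 in control and 783, 812 and 629 with dm-αKG, where replicate 3 fell among the controls, and an adjusted p of 0.017 (edgeR, Benjamini-Hochberg). RPL13 had a log2 fold change of 0.26 ± 0.09 (SE) and an adjusted p of 0.0255, and RPL18, whose peak is shared with SPHK2, 0.18 ± 0.07 and 0.0604, in the same edgeR test with Benjamini-Hochberg adjustment. RPS3A, of the small subunit, had a log2 fold change of -0.09 ± 0.07 (SE).

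Members with roles outside translation gave small values at their leading peaks. RPL11 had a log2 fold change of 0.02 ± 0.10 (SE), RPL5 0.02 ± 0.08 and RPL23, a further MDM2 binder, 0.12 ± 0.15. The 7 MDM2-binding members had a median of 0.02, and none passed. The 19 Diamond-Blackfan genes also had a median of 0.02 over leading peaks, and none passed. RPS26, 1 of these genes, had -0.05 ± 0.07, RPS6, the substrate of S6 kinase, had -0.08 ± 0.08, and X-linked RPS4X had -0.13 ± 0.13 as log2 fold change and SE. In the stalk, which recruits the translational GTPases, RPLP0 had 0.14 ± 0.08, RPLP1 0.26 ± 0.10 and RPLP2 0.05 ± 0.09, with adjusted p-values of 0.239, 0.0625 and 0.715 (edgeR, Benjamini-Hochberg).

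The weaker peaks beside the leading ones moved more. Of the 17 RP peaks that rose, 15 were not the leading peak of their gene. Over the 152 peaks that were not leading, the median log2 fold change was 0.28, with 79.6% above 0, 15 (9.87%) higher and 0 lower. Such peaks at other protein-coding starts had a median of 0.14, with 68.0% above 0, 4.77% higher and 1.81% lower. The split into leading and other peaks, and by position, was chosen after the values were seen and is a description.

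Among these peaks the higher values lay on the transcribed side. The 69 other RP peaks within 1 kb downstream of the canonical start had a median log2 fold change of 0.39, with 63 (91.3%) above 0, 9 higher and 0 lower. The 15351 peaks of the same position at other genes had a median of 0.20, with 76.9% above 0 and 6.68% higher. Upstream, the 59 other RP peaks had a median of 0.14 with 4 higher, and those of other genes 0.10 with 3.09% higher. The 24 RP peaks beyond 1 kb of the canonical start had a median of 0.09 with 2 higher. The RP values lay above those of other genes in the downstream peaks, but this difference was not tested.

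The share of all counts in the 69 downstream peaks was 0.0209%, 0.02187% and 0.02001% in the control libraries and 0.0296%, 0.0283% and 0.0243% in the dm-αKG libraries. Other genes' downstream peaks took 7.06%, 7.19% and 7.02% in control and 8.42%, 8.13% and 7.62% with dm-αKG. In both sets the groups were separate and dm-αKG replicate 3 was nearest to control, so the family moved in the same libraries as starts in general.

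Within genes, 55 members had a downstream peak beside their leading peak. In 63 of the 69 peaks the log2 fold change exceeded that of the leading peak of the same gene, and in 51 of the 55 genes the median of the downstream peaks did. The median difference over genes, downstream minus leading, was 0.34 on the log2 scale. The downstream peaks were weak, with a median of 16.7% of the level of the leading peak. Most lay in introns, and the 54 RP peaks in a first intron had a median log2 fold change of 0.39, with 50 above 0 and 7 higher. Within-gene counts were not made for other genes, so these do not set RP genes apart. At other genes the medians were 0.20 for downstream peaks and 0.05 for leading peaks. For ribosome biogenesis genes they were 0.35 and 0.07.

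**Figure D3:**
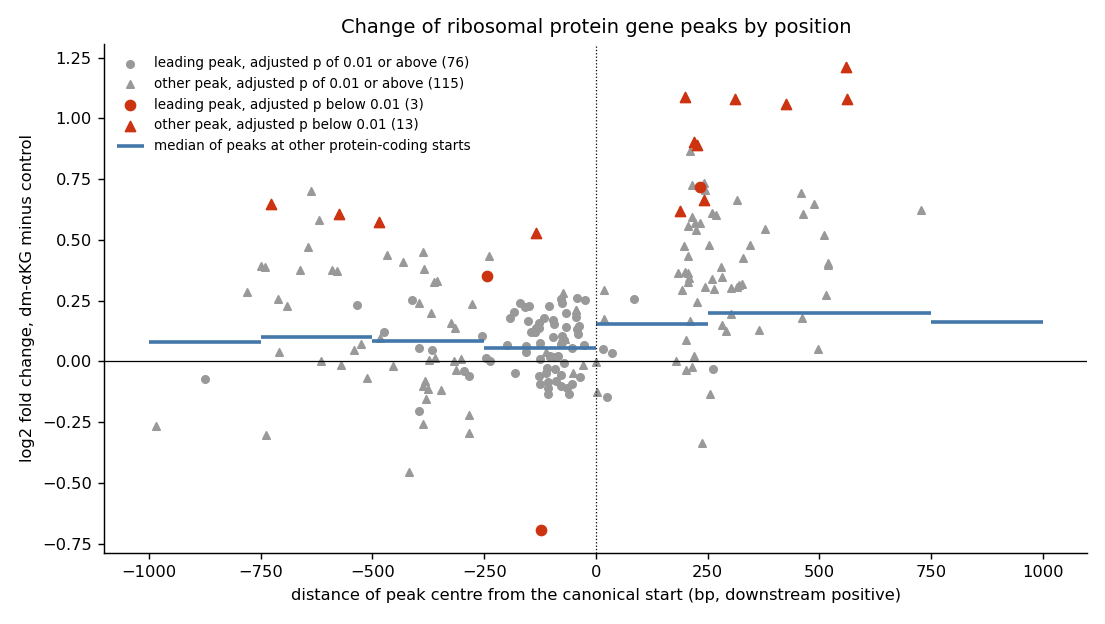
Log2 fold change (dm-αKG minus control) of RP peaks within 1 kb of the canonical start against the distance of the peak centre from that start in bp, with leading peaks as circles, other peaks as triangles and peaks with an adjusted p below 0.01 in red. Blue lines give the median of peaks at other protein-coding starts in windows of 250 bp. Leading peaks cluster upstream near 0, and the downstream triangles lie mostly above 0 and above the blue lines.

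In steps of 250 bp from the canonical start, the 40 RP peaks in the first step downstream had a median log2 fold change of 0.35 and the 28 in the second 0.34, against 0.15 and 0.20 at other genes. The 73 peaks in the first step upstream, which holds most leading peaks, had 0.08, against 0.05. In the second step upstream, 36 RP peaks had 0.03 against 0.08, and in the third, 20 RP peaks had 0.31 against 0.10. The steps farther out held fewer than 20 RP peaks.

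The 5 peaks called higher all lay downstream of the start, and with TMM factors from promoter peaks alone 1 of the family was called. No interval of the control list overlapped the called peaks of RPL22, RPS16 and RPL27 or the called intron 2 peak of RPS15. The choice of these rows was thus not independent of their rise. RPL22 encodes a large subunit protein that binds RNA and is lost in some leukaemias. Its intron 1 peak at chr1:6198936-6199135 (hg38), 560 bp downstream, had normalized counts of 19.7, 21.4 and 8.503 in control and 49.5, 29.5 and 37.4 with dm-αKG. The groups were separate at low counts, with a log2 fold change of 1.21 ± 0.32 (SE) and an adjusted p of 0.00363 (edgeR, Benjamini-Hochberg). Its leading peak, 45 bp upstream, had 0.18 ± 0.09.

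RPS15, a small subunit protein that contacts the decoding centre, had 2 called peaks. The intron 1 peak at chr19:1438486-1438704 had 31.3, 33.7 and 37.7 normalized counts in control and 77.4, 84.7 and 52.4 with dm-αKG. The intron 2 peak at chr19:1438858-1439057 had 23.3, 24.7 and 30.4 in control and 63.8, 62.9 and 32.9 with dm-αKG. In both, dm-αKG replicate 3 was the lowest treated library, and in the intron 2 peak it lay just above the highest control. The log2 fold changes were 1.09 ± 0.23 and 1.08 ± 0.27 (SE), with adjusted p-values of 0.000229 and 0.00181 (edgeR, Benjamini-Hochberg). Its leading peak had a log2 fold change of 0.23 ± 0.12 and an adjusted p of 0.173 in the same edgeR test.

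RPS16, a small subunit protein, shares its promoter region with SUPT5H, which encodes a transcription elongation factor. Its peak at chr19:39435539-39435738, in coding exon 2, had 24.1, 27.9 and 34.0 normalized counts in control and 68.8, 62.9 and 44.9 with dm-αKG. RPL27, of the large subunit, had an intron 2 peak at chr17:42998745-42998944 with 35.8, 35.3 and 27.9 in control and 71.0, 79.5 and 56.9 with dm-αKG. Neither peak had overlapping groups. The log2 fold changes were 1.08 ± 0.25 (SE) for RPS16 and 1.06 ± 0.23 (SE) for RPL27, with adjusted p-values of 0.000882 and 0.00039 (edgeR, Benjamini-Hochberg). Exons of RP genes are nearly identical to processed pseudogenes elsewhere, so the values of the exonic RPS16 peak and of the leading RPL27A peak in exon 5 UTR are uncertain.

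Below a log2 fold change of 1, RPL14 had a peak in intron 3, 1417 bp from the canonical start at chr3:40458657-40458856. Its normalized counts were 69.8, 70.7 and 41.3 in control and 141, 119 and 103 with dm-αKG. The groups were separate, at a log2 fold change of 0.99 ± 0.18 (SE) and an adjusted p of 1.49e-05 (edgeR, Benjamini-Hochberg). No interval of the control list overlapped this intron 3 peak. RPL14 had 0.06 ± 0.09 at its leading peak.

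RPL23A and RPS29 also rose in intron 1. RPL23A, a protein near the exit of the nascent chain, had 49.2, 40.3 and 25.5 normalized counts in control and 83.9, 75.7 and 55.4 with dm-αKG, for a log2 fold change of 0.90 ± 0.23 (SE). RPS29, a Diamond-Blackfan gene, had 44.7, 41.9 and 48.6 in control and 83.9, 87.2 and 77.8 with dm-αKG, for 0.89 ± 0.21 (SE). Both peaks had separate groups. Their leading peaks upstream had log2 fold changes of 0.05 ± 0.09 and 0.04 ± 0.09 (SE). The intron 1 peaks of RPL35 and RPL36 rose by 0.66 ± 0.19 and 0.62 ± 0.16 on the log2 scale (SE), and the RPL35 peak lay within 1 kb of a start of ARPC5L as well.

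Fewer of the passing peaks lay upstream. RPS19, whose loss causes Diamond-Blackfan anaemia, had its second peak 134 bp upstream at chr19:41860020-41860223. The control libraries had 174, 179 and 129 normalized counts there and the dm-αKG libraries 256, 222 and 219. The groups did not overlap, the log2 fold change was 0.53 ± 0.12 (SE) and the adjusted p 0.000795 (edgeR, Benjamini-Hochberg). RPL9 (575 bp upstream, shared with LIAS) and RPL26 (727 bp upstream, shared with a gene without a symbol) rose by 0.60 ± 0.17 and 0.65 ± 0.18 on the log2 scale (SE). A second RPS29 peak, at an alternative start 12820 bp upstream and near LRR1, rose by 0.55 ± 0.14 (SE).

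The 18 passing peaks came from 16 genes, all had separate groups, and 5 lay near a start of another gene as well. The control mean of the 17 higher peaks ran from 16.5 to 302 normalized counts with a median of 60.6, against a median of 342 over all RP leading peaks. In the peak lists of the 2 treatments, 9 of the 17 held a summit of both lists and 7 a summit of the dm-αKG list alone. For these 7 the choice of the row was not independent of its rise. Over all 234 RP peaks, 188 held a summit of both lists, 18 of the control list alone and 28 of the dm-αKG list alone.

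**Figure D4:**
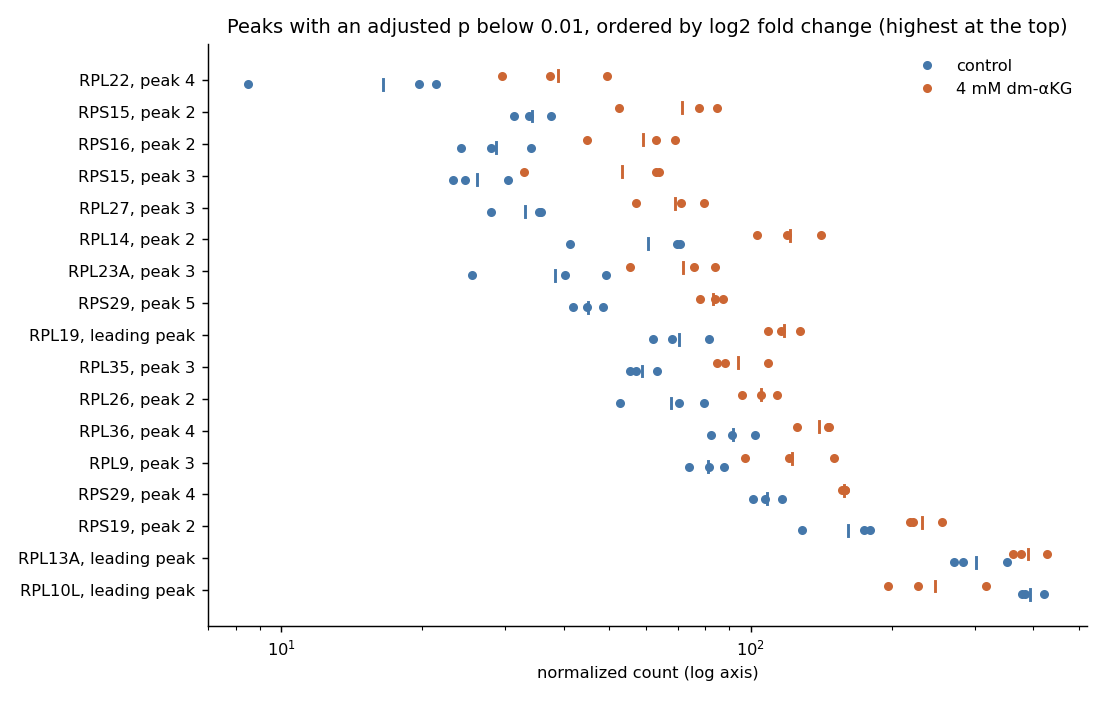
Normalized counts (log axis) of 17 RP peaks with an adjusted p below 0.01 in the 3 control and 3 dm-αKG libraries, with a line at each group mean and the peaks ordered by log2 fold change. Peak numbers rank a gene's peaks by mean count. RPL10L at the bottom is lower with dm-αKG, and the other 16 are higher without overlap between groups.

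Diamond-Blackfan genes as a group had 56 peaks, with a median log2 fold change of 0.23, 6 higher and 0 lower, and the 7 MDM2-binding members had 21 peaks with a median of 0.24 and 1 higher, beside 7.26% higher among all RP peaks. Over the downstream peaks alone, the 22 of the small subunit had a median of 0.50 and were all positive. The 41 of the large subunit had a median of 0.36 with 36 positive. Genes with a TOP start had 0.36 over 45 downstream peaks and those without 0.42 over 24, with medians of 0.08 and 0.06 at their leading peaks. The classes were not tested against each other.

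Letters of known promoter motifs were searched on both strands in the window of 100 bases before and 20 from the canonical start on. The ETS letters CCGGAAG stood in 23 of 83 members (27.7%), against 9.92% of 19950 other genes, and the BoxA letters CTCGCGAG in 5 (6.02%), against 0.902%. TATAAA stood in 8 members (9.64%), against 5.92%, and the YY1 letters AAGATGGC in 3 (3.61%), against 1.58%. The NRF1 letters GCATGCGC stood in 4 members (4.82%), against 2.74%. The GC-box letters GGGGCGGGG were rarer in members (8 of 83, against 3392 of 19950), as were CACGTG (2.41% against 4.76%) and CCAAT (19.3% against 21.9%), and ACTACAATT of ZNF143 stood in none, against 0.170%. None of the searched motifs contains another.

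The leading peaks themselves gave a partly different picture. Within 200 bp around the peak centre, the ETS letters stood in 22 of 82 RP leading peaks (26.8%), against 12.8% of the leading peaks of other genes, BoxA in 4.88% against 1.19%, TATAAA in 6.10% against 2.04% and the YY1 letters in 4.88% against 2.42%. The GC-box letters stood in 9 of 82, against 21.6%, and CACGTG in 4.88% against 6.11%. In these peaks the NRF1 letters were rarer in members (2.44% against 3.46%), those of ZNF143 stood in 1.22% against 0.435%, and CCAAT in 29.3% of both sets. RPS19 is shown as an example with 2 copies of BoxA, in capitals, from -67 and -48, at chr19:41860155-41860274 on the plus strand; this window overlaps the RPS19 peak that rose.
RPS19: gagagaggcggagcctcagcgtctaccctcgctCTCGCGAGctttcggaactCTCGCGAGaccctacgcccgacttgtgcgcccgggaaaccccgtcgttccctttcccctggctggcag
A match is a string of letters and was not tested for binding. The 23 genes with the ETS letters had a median log2 fold change of 0.05 at the leading peak and 0.31 over 20 downstream peaks, and the genes without them 0.09 and 0.48. All 9 downstream peaks that rose were among the 49 of 69 that belong to genes without the letters, and this split was not tested.

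Genes of neighbouring function were read from lists by their leading peaks. Among genes that encode RPs or RACK1 under other symbols, FAU had a log2 fold change of 0.24 ± 0.08 (SE), RPL36AL 0.16 ± 0.07, RPSA 0.01 ± 0.09 and RACK1 0.00 ± 0.15, and none of these 4 passed. The counts below stand against 3.67% higher and 2.80% lower among the leading peaks of other protein-coding genes. Of 18 genes with TOP transcripts, most of them translation factors, 3 rose and 0 fell. EIF4A2, an RNA helicase, rose by 0.51 ± 0.14, EEF1D, an elongation factor subunit, by 0.48 ± 0.13, and EIF2S3, a subunit of the initiator tRNA carrier, by 0.43 ± 0.11 on the log2 scale (SE). Of 37 ribosome biogenesis genes, 0 rose and 0 fell. Of 14 RNA polymerase I genes, 1 rose, POLR2E, whose subunit is shared by all nuclear RNA polymerases, by 0.47 ± 0.11 on the log2 scale.

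Of 78 mitochondrial RP genes, which serve the separate ribosome of mitochondria, 4 rose and 0 fell at the leading peak, namely MRPS34, MRPS18A, MRPS15 and MRPL40, by 0.30 to 0.53 on the log2 scale. The downstream peaks of the genes with TOP transcripts had a median of 0.38 over 24 peaks. Those of ribosome biogenesis had 0.35 over 53 and those of the mitochondrial RPs 0.21 over 102. The numbers that rose were 5, 5 and 6, and 0 fell in each list, against 6.68% higher among downstream peaks of other genes. The cytosolic RP median of 0.39 stood beside the first 2 of these values, and no difference between the lists was tested.

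**Figure D5:**
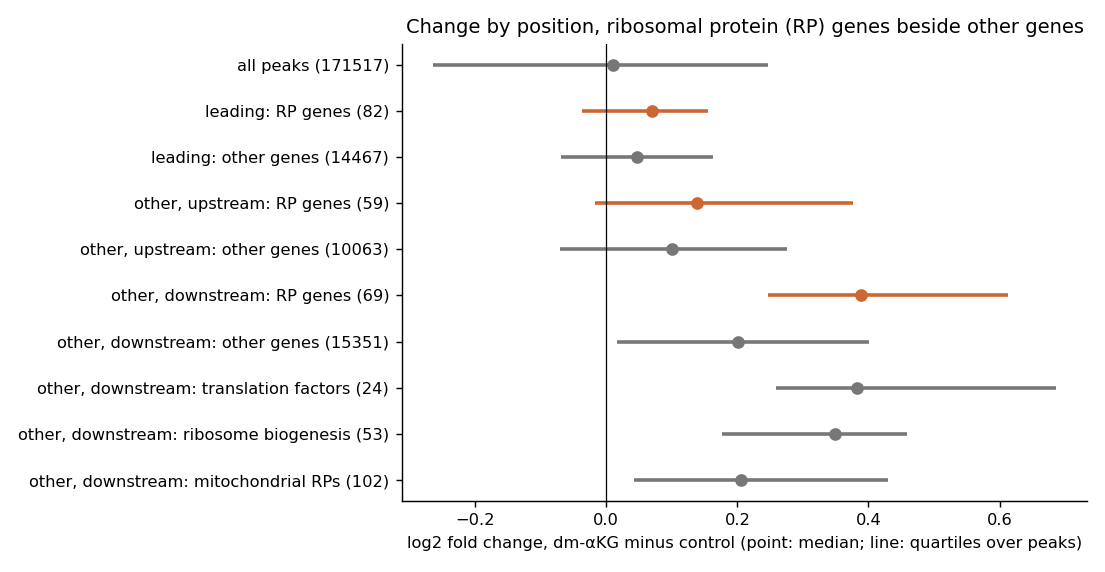
Median (point) and quartiles (line) of the log2 fold change over peaks, dm-αKG minus control, for all peaks, leading peaks, and other peaks upstream and downstream of the canonical start, with the number of peaks in parentheses. RP groups are orange and other groups grey. The group labelled translation factors also holds other genes with TOP transcripts. RP leading peaks lie at 0.07 and RP downstream peaks at 0.39, and the downstream peaks of other genes lie at 0.20.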

How the data were processed

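ATAC-seq libraries of 3 control and 3 dm-αKG samples were grouped by the treatment in the labels. Read pairs had been processed by the authors with the ENCODE ATAC-seq pipeline (Bowtie 2 on hg38, MACS2 peaks), in 1 run per treatment. The authors deposited 1 peak list per treatment, with a score, the ratio of signal to background as a fold enrichment, −log10 q-values and the summit position. The authors shortened peaks to 200 bp around the summit, merged both lists and deposited raw counts of reads per merged peak, which are tested here. Nearby summits were thereby joined into wider rows. All values of the counts table were whole numbers. bedtools 2.28.0 was used for counting, per the labels and methods. Peaks assigned by distance may belong to another gene.

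Counts were fitted for all 171517 peaks in R 4.3.3 with edgeR 4.0.16, with TMM factors and a quasi-likelihood model whose single term was treatment, and p-values were adjusted by Benjamini-Hochberg. An SE is the log2 fold change over the root of its F statistic. Called means an adjusted p below 0.01 with an absolute log2 fold change above 1, and higher, lower, rose or fell means an adjusted p below 0.01 alone. Starts came from GENCODE 44, and the canonical start is that of the transcript tagged canonical. The fit was tested on simulated data. DESeq2 1.42.0, limma 3.58.1, other scalings, a minimum of 10 counts, thinning, leaving out each library, a replicate block and other windows were alternatives. The smallest p of an exact permutation test of 3 against 3 is 0.1.

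Genes were named by rule: per gene the leading peak, for the 5 lower and 5 higher with the smallest adjusted p, the 5 highest and 5 lowest control levels, the stalk genes, the L-type paralogs, RPL5, RPL11, RPL23, RPS19, RPS26, RPS6 and RPS4X, and each peak with an adjusted p below 0.01. The members and lists were chosen with earlier results of these data known. Some items that the rule or the lists name are not reported here. RPL10 was added after its values were seen. Figures were drawn with matplotlib 3.10.9. Sequences were read from hg38.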

Additional observations from a re-analysis of the deposited data

How the results depend on the processing

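The counts of RP peaks differed between settings. Peaks called higher numbered 5 in the main fit, 3 with thinning to the smallest library, 3 with DESeq2, 3 with a window of 500 bp, 1 with TMM from promoter peaks and 0 with 1 peak a gene. With an adjusted p below 0.05 and no fold threshold there were 33 higher and 3 lower. Peaks higher at an adjusted p below 0.01 numbered 17 in the main fit, 4 with thinning, 8 with DESeq2, 2 with 1 peak a gene, and 11 (beside 3 lower in place of 1) with TMM from promoter peaks. Thinning and fewer libraries hold fewer reads, and 1 peak a gene keeps the leading peaks alone. The cause of the differing counts was not tested for any setting. The median log2 fold change was 0.15, 0.0594 with TMM from promoter peaks and 0.0693 with 1 peak a gene. Leaving out 1 library gave 2 to 8 called higher, 7 to 25 higher at an adjusted p below 0.01 and medians from 0.13 to 0.18. The 17 higher peaks had a positive change in each alternative that tested them, 16 of them where at least 10 counts per library were required. RPL10L passed in all fits.

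Leading peaks that passed in no direction changed sign as follows, in log2 fold changes. With TMM from promoter peaks the values were RPL11 -0.0677, RPL14 -0.0346, RPL23A -0.0429, RPL26 -0.079, RPL26L1 -0.0421, RPL32 -0.0555, RPL5 -0.0688, RPL9 -0.0292, RPLP2 -0.0377, RPS27L -0.0251 and RPS29 -0.0536. With thinning they were RPL11 -0.0771, RPL14 -0.00528, RPL23A -0.0391, RPL5 -0.0753 and RPS27L -0.0203, and with GC content offsets RPL26 -0.0413, RPL35A 0.0153, RPL5 -0.00782, RPL7L1 0.0258 and RPLP2 -0.0394. RPL22L1 had 0.0169 with loess offsets, 0.0111 with total counts and 0.0103 with upper quartile scaling. Leaving out 1 library gave -0.0202 to 0.0598 for RPL11, -0.0633 to 0.0651 for RPL22L1, -0.0292 to 0.26 for RPL23, -0.00299 to 0.11 for RPL23A, -0.0314 to 0.0661 for RPL26, -0.0407 to 0.15 for RPL26L1. For the others it gave -0.0838 to 0.19 for RPL32, -0.18 to 0.0368 for RPL35A, -0.0107 to 0.0747 for RPL5, -0.11 to 0.0333 for RPL7L1, -0.00689 to 0.14 for RPL9 and -0.0885 to 0.11 for RPS29.

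Replicate numbers did not pair the libraries: deviations of same-numbered libraries correlated at -0.0157, -0.000899 and 0.0134 over peaks. The replicate block gave 18 higher in place of 17, and 16 with GC content offsets, and changed no call count by more than 1.5 times. With the block RPL22L1 had 0.000549, and with the block and GC content offsets the values were RPL26 -0.0385, RPL35A 0.0209, RPL5 -0.00999, RPL7L1 0.0225 and RPLP2 -0.0377. Depth limits the low downstream peaks: the lowest count of an RP peak was 7 reads, in control replicate 3.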
